A study of Mus musculus with 24 samples.

Results

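The nuclei described here are those of the choroid plexus epithelium that came with the deep brain tissue of 12 mice, 129 nuclei of 124958 kept from the deep brain and of 204925 kept from the whole series. They were chosen by their counts of unique molecular identifiers (UMIs, each standing for 1 captured RNA molecule). A nucleus needed at least 4 UMIs from at least 2 of the 5 genes *Tmem72*, *Kl*, *Kcnj13*, *Gmnc* and *Prlr*, and at least 5 UMIs of *Ttr*. It could carry no UMI of the neuronal gene *Rbfox3* or the microglial gene *Csf1r*, and at most 1 UMI of the myelin genes *Mog*, *Mag* and *Mobp* together. The 5 genes with their limit left 504 nuclei, *Ttr* left 172, *Rbfox3* 146, the myelin genes 132 and *Csf1r* 129.

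The mice were of the strain B6.Pdgfbtm3Cbet, 6 of them homozygous (*Pdgfb* ret/ret, called mutants) and 6 heterozygous (*Pdgfb* ret/wt, called controls), and nuclei of the deep brain and of the cortex of each were sequenced as separate libraries. The *ret* allele makes a PDGF-B that lacks the motif which holds it near the cells that secrete it, and mutants with 2 such alleles develop calcified vessels in the deep brain. All 12 mice carried at least 1 *ret* allele, so no wild-type mouse was compared, and all were female except control mouse 6. The labels give ages of 5 months for the first 3 mice of either genotype and of 4 months, plus 7 to 24 days, for the rest. Days are also given for mice 1 (3 days) and mice 3 (18 days) of both genotypes. Same-numbered mice have the same label, except that the ages of mice 5 and 6 are crossed.

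The choroid plexus is a fringe of vascularized tissue that hangs into the brain ventricles, covered by 1 layer of epithelial cells. These cells secrete cerebrospinal fluid by moving ions and water from blood to ventricle, close the barrier between the 2 fluids with tight junctions, and carry vitamins, hormones and metals across. They also release proteins into the fluid, above all transthyretin (*Ttr*), which carries thyroid hormone, and they are developmental relatives of the ciliated ependymal cells that line the ventricle walls.

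The members held 786978 UMIs in all. A nucleus had between 870 and 18246 UMIs, with a median of 5561 over 2926 genes and a median mitochondrial share of 0.188%. At the edge of the rule, 2 members had exactly 4 UMIs of the 5 genes, against a median of 32 and a highest of 180, and the lowest *Ttr* was 7 UMIs, the next 20, the median 133 and the highest 2627. A further 67 nuclei failed on the limit for the 5 genes alone, with a median *Ttr* of 6 UMIs, and only 1 of them had 3 UMIs of these genes. Another 45 failed on *Ttr* alone, with at most 3 UMIs, and in these 58.6% of the UMIs of the 5 genes came from *Prlr*.

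Several libraries stood apart before any comparison. No nucleus met the rule in mutant mouse 3 or in control mouse 6, the male. Without the limit on *Ttr*, 2 nuclei of mutant mouse 3 and 8 of control mouse 6 would have met it. Scrublet, which marks nuclei that resemble a mixture of 2, called 5 members, 3 of which were among the 5 nuclei of mutant mouse 4, 1 in mutant mouse 2 and 1 in control mouse 1. It called 5.65% of all kept deep brain nuclei, and no nucleus was removed for such a call in the main results. Of the member barcodes 23 also occurred in another deep brain library, and 14.4% of all kept deep brain barcodes did. The deep brain libraries held 64736053 to 96459036 UMIs each.

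The label was checked against genes that the rule did not use. *Htr2c*, a serotonin receptor by which this epithelium is known, had UMIs in 123 of the 129 nuclei (95.3%), against 9.10% of 33517 oligodendrocyte nuclei of the same tissue, a cell type that should lack it. The median depth was 5561 UMIs in the members and 2828 in the oligodendrocytes. Of the 16 genes on the list for choroid plexus epithelium, 5 of which the rule used, all were higher than in the other kept deep brain nuclei by at least 10-fold, and 15 were higher than in 104 ependymal nuclei. Ependymal nuclei were those with at least 6 UMIs from at least 3 of *Tmem212*, *Ccdc153*, *Rarres2*, *Dnah12*, *Spag17* and *Cfap54*, at most 1 of *Tmem72*, *Kl* and *Kcnj13* together, and the same limits on *Rbfox3*, myelin genes and *Csf1r* as above. Levels here are CPM, the counts in 1000000 of the UMIs summed over nuclei, and intervals beside them are exact 95% Poisson intervals that cover counting error only. Because the rule picked these nuclei by such genes, contrasts with other nuclei are given as a description.

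Several defining markers of other cell types were at 0. *Cd163*, *Lyve1*, *Ptprc* and *Inpp5d* of macrophages, *Cdh5* of endothelium, *Lum*, *Slc47a1* and *Col3a1* of fibroblasts, and *Tmem212* and *Ccdc153* of ependymal cells had no UMI in any of the 129 nuclei. The 9 microglia and macrophage markers summed to 40.6 CPM (84.1 in the other nuclei), with 0 to 96.2 CPM over mutant and 18.1 to 64.1 over control libraries, and *Cx3cr1* gave 24.1 CPM of it. The 6 endothelial markers summed to 17.8 CPM (39.2), with 0 to 10.7 CPM over mutant and 0 to 49.5 over control libraries. The fibroblast markers summed to 87.7 CPM (56.3 in the other nuclei), nearly all from *Col1a2* and *Pdgfra*, and ranged from 0 to 43.9 CPM over mutant and from 0 to 163 over control libraries. The ependymal markers summed to 228 CPM (45.7 in the other nuclei), 215 of it *Cfap54*. The 7 astrocyte markers summed to 1031 CPM over all members, against 1152 in the other nuclei, 5 of them being higher in the members, and their sum ran from 82.2 to 1625 CPM over mutant libraries and from 121 to 3221 over control libraries. In control mouse 4, the highest, 2 of its 19 nuclei held 238 and 162 of the 412 astrocyte UMIs and the median nucleus held 0. The 8 neuronal markers summed to 774 CPM (14776 in the other nuclei) and the 6 oligodendrocyte markers to 437 CPM (2577), with 1 nucleus over 1% of its UMIs on the neuronal list and none on the oligodendrocyte list. The part of these UMIs in the results that follow was not tested, except where a value without them is given.

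The number of members differed widely between mice. Mutant mice 1 to 6 gave 13, 3, 0, 5, 6 and 9 nuclei, and control mice 1 to 6 gave 34, 6, 11, 19, 23 and 0. As a share of kept nuclei this was 0.125%, 0.0294%, 0%, 0.0418%, 0.0526% and 0.0824% in the mutants. In the controls it was 0.362%, 0.0550%, 0.114%, 0.246%, 0.203% and 0%. The 2 genotypes overlapped, since the lowest controls lay among the mutants and mutant mouse 1 lay above 3 controls.

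**Figure D1:**
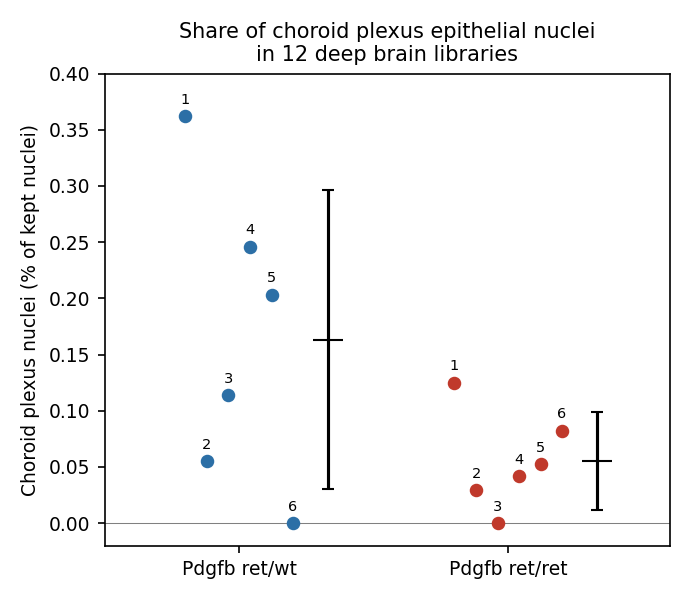
Share of choroid plexus epithelial nuclei in percent of kept nuclei (vertical axis) in the 6 control and 6 mutant deep brain libraries, each point 1 mouse with its number, and black bars the mean and SD. Controls averaged 0.163% and mutants 0.0553%, and both groups held a library at 0%.

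The mean share was 0.0553% ± 0.0438 (SD, n = 6) in mutants and 0.163% ± 0.133 (SD, n = 6) in controls. The difference of -0.108 percentage points did not pass a two-sided exact permutation test over mice (p = 0.0909 over 924 splits, the smallest possible being 0.00216). Among mice 1 to 3 the difference was -0.125 (exact permutation p = 0.300) and among mice 4 to 6 it was -0.0910 (exact permutation p = 0.400), where 3 against 3 cannot go below 0.10. Single libraries moved this result: without control mouse 6, which leaves female mice only, the difference was -0.141 and the exact permutation p was 0.0260, and without control mouse 1, the highest, it was -0.0684 (exact permutation p = 0.182). With the deep brain and cortical nuclei of each mouse pooled, an alternative chosen after seeing the data, the difference was -0.0691 (exact permutation p = 0.104). Cortical libraries differed widely in depth per nucleus, which was not corrected for. How much choroid plexus stays attached to a block of dissected tissue was not measured. Ependymal nuclei made up 0.0907% ± 0.0445 of the same mutant and 0.0767% ± 0.0540 of the same control libraries (SD, n = 6 each, exact permutation p = 0.621). The ventricle that either kind of nucleus came from is not known.

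Genes for ion and water transport summed to 38725 CPM, most of it from 1 gene, and genes for nutrient, vitamin and hormone transport to 4937 CPM. *Trpm3*, which codes for a cation channel and hosts the microRNA miR-204 in an intron, was at 25899 CPM (25545 to 26257), against 598 in ependymal nuclei and 1083 in the other nuclei. *Slc4a10*, a sodium bicarbonate transporter of the basolateral membrane, was at 2971 CPM against 82.4 and 382. *Slc4a5*, its relative at the ventricular membrane, was at 496 CPM against 1.75 and 0.654. Of 25 genes for ion and water transport 22 were higher than in the other nuclei, 12 of them by at least 10-fold, and 19 were higher than in ependymal nuclei.

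*Slc12a2*, the sodium, potassium and chloride cotransporter NKCC1, was at 662 CPM (606 to 721) against 29.8 in ependymal and 151 in the other nuclei. *Stk39*, the kinase that activates it, was at 3083 CPM against 82.4 and 200. *Car12*, a membrane carbonic anhydrase, was at 493 CPM and had no UMI in ependymal nuclei. *Clic6*, a chloride channel protein, was at 564 CPM against 31.5 in ependymal nuclei, and *Trpv4*, an osmosensitive calcium channel, at 327 CPM against 8.76. *Aqp1*, the water channel of the ventricular membrane, gave 60 UMIs in all, or 76.2 CPM.

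Carriers for hormones and vitamins were the next group. *Slco1c1*, which takes up thyroxine, was at 588 CPM (536 to 644) against 56.1 in ependymal nuclei. *Slc23a2*, which imports vitamin C, was at 747 CPM against 87.6. *Folr1*, the folate receptor that carries folate into the cerebrospinal fluid (chromosome 7, 101858331 to 101870788, minus strand, GRCm38), was at 388 CPM (345 to 434) against 68.4 in ependymal nuclei and 0.327 in the other nuclei. Of 25 genes for nutrient, vitamin and hormone transport 20 were higher than in ependymal nuclei and 21 higher than in the other nuclei.

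**Figure D2:**
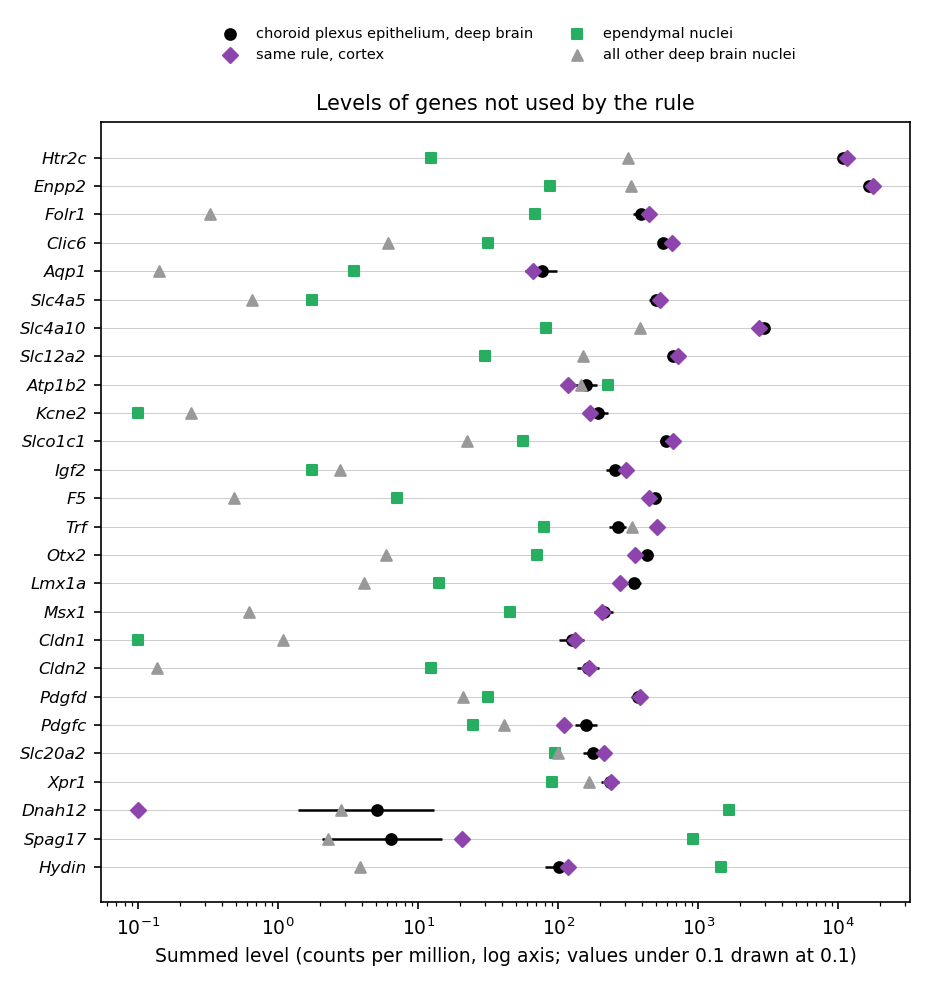
Summed levels in CPM (horizontal log axis) of 26 genes that the choice of members did not use, for the members (black, lines show exact 95% Poisson intervals), nuclei of the same rule in the cortex, ependymal nuclei and all other deep brain nuclei. *Htr2c* was at 10848 CPM in the members against 12.3 in ependymal nuclei, and *Hydin* at 102 against 1465. *Dnah12* and *Spag17* were among the genes that chose ependymal nuclei.

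Among genes for secreted and carrier proteins, *Enpp2*, which makes the lipid mediator lysophosphatidic acid, was at 16642 CPM (16358 to 16930), against 87.6 in ependymal nuclei. It had UMIs in 100% of members but also in 98.1% of oligodendrocyte nuclei, which make it too. *Col9a3* and *Col8a1*, which code for collagen chains, were at 1394 and 1313 CPM, and *F5*, coagulation factor V, was at 489 CPM against 0.482 in the other nuclei. *Igf2*, a growth factor released into the cerebrospinal fluid, was at 254 CPM (220 to 292) against 1.75 in ependymal nuclei. *Apoe* and *Clu*, lipid carriers, were lower in the members (1111 and 720 CPM) than in ependymal nuclei (1705 and 1304 CPM).

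The serotonin receptor *Htr2c* (chromosome X, 146962513 to 147197277, plus strand) was the leading gene of the receptor list, at 10848 CPM (10619 to 11080) against 318 in the other nuclei. *Lepr*, the leptin receptor, was at 155 CPM against 8.83. *Fgfr2* and *Igf1r*, growth factor receptors, were at 485 and 351 CPM, the second of them below its level in ependymal nuclei (403). Of 30 receptors 3 had no UMI, among them the vasopressin receptor *Avpr1a*. Of junction and polarity genes, *Cldn2* and *Cldn1*, which code for claudins of tight junctions, were at 164 and 126 CPM against 12.3 and 0 in ependymal nuclei, while *Ocln*, occludin, was at 99.1 CPM against 94.6. *Pard3*, a polarity protein, was the highest of the 23 at 417 CPM (274 in the other nuclei).

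Transcription factors of the roof plate, the embryonic source of this epithelium, were led by *Otx2* at 431 CPM (386 to 479, chromosome 14, 48657677 to 48673819, minus strand), *Lmx1a* at 348, *Lef1* at 310 and *Msx1* at 211. In the other nuclei they were at 5.87, 4.08, 82.7 and 0.620 CPM, and in ependymal nuclei at 70.1, 14.0, 12.3 and 45.6. None of 16 *Hox* genes that mark the hindbrain had a UMI in any member, and 0 of 129 nuclei allows a share of nuclei with a UMI of up to 2.33%, which does not limit the share that expresses such a gene. The other deep brain nuclei held 1498 *Hox* UMIs, which was 1.61 CPM. In the members 0 UMIs allow a level of up to 3.81 CPM by a one-sided limit, or 4.69 by the two-sided interval used for other levels. Forebrain position genes summed to 76.2 CPM in the members and 90.9 in the other nuclei.

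Genes for motile cilia were lower in the members than in their ependymal relatives. The multicilia list holds *Spag17*, *Cfap54* and *Dnah12*, by which ependymal nuclei were chosen. Of its 21 other genes in the data 5 had no UMI in the members, 0 were higher and 19 lower than in ependymal nuclei, and 16 were higher than in the other nuclei. These 21 summed to 3634 CPM in the members, 16373 in ependymal nuclei and 396 in the rest. *Rfx3*, which turns on cilia genes, was nearly as high as in ependymal nuclei (1116 against 1246 CPM). *Cfap44*, *Spef2* and *Dnah9*, which code for axoneme proteins, were at 428, 422 and 324 CPM against 1288, 1258 and 1288. *Hydin*, a protein of the central pair, was at 102 against 1465 CPM, and *Dnah12*, an inner dynein arm protein, at 5.08 against 1656. *Dnah5*, an outer dynein arm protein, and *Myb*, a transcription factor, had no UMI, against 771 and 137 CPM. *Gmnc*, which starts the multicilia program, was 1 of the rule's genes and was at 1065 CPM against 52.6.

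Across all genes, 4414 reached 50 CPM in the members and 344 of these were at least 10-fold higher than in the other nuclei. The 20 with the largest fold ran from 1601-fold down to 568-fold, and gene 21 was at 538-fold. They included the rule's *Tmem72*, *Gmnc* and *Ttr*, the claudin *Cldn2*, both folate receptors *Folr1* and *Folr2*, *F5*, the potassium channel subunit *Kcne2*, *Slc4a5* and the lactate carrier *Slc16a8*. The beta-defensin genes *Defb9* and *Defb11* were among them at 55.9 and 113 CPM, with UMIs in 26.4% and 40.3% of members. The remaining 8 were 2900040C04Rik (the highest, at 175 CPM), *Olfr1507*, Gm50011, Gm534, *Prr32*, Gm29538, *Wdr86* and *Steap1*.

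The gene altered in these mice was itself detected. *Pdgfb* (chromosome 15, 79995874 to 80014977, minus strand) gave 31 UMIs over the members, 39.4 CPM (26.8 to 55.9), and was present in 18.6% of them against 0.895% of oligodendrocyte nuclei. In mutant mice 1, 4, 5 and 6 it was at 10.7, 22.0, 64.2 and 20.6 CPM, and in control mice 1 to 5 at 59.5, 48.3, 36.1, 15.6 and 64.1 CPM. The genotypes overlapped, and the gene had too few UMIs to enter the fit between genotypes. The *ret* allele still makes the transcript, so this level does not check the genotype labels. *Pdgfd*, another ligand of this family, was at 371 CPM (330 to 416) against 31.5 in ependymal and 20.8 in the other nuclei, *Pdgfc* at 159 CPM and *Pdgfa* at 77.5. The receptor *Pdgfrb* had 4 UMIs. *Pdgfd* was at 289, 242, 289 and 391 CPM in the mutants and at 391, 459, 199, 586 and 273 in the controls, which overlap.

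Genes of phosphate handling are of interest in a mouse whose vessels calcify. *Kl*, which codes for klotho, a coreceptor in phosphate control, was a gene of the rule. *Xpr1*, the phosphate exporter, was at 234 CPM (201 to 270) against 166 in the other nuclei. *Slc20a2*, a phosphate importer, was at 178 CPM (150 to 210) against 99.4. It was at 96.4, 176, 128 and 329 CPM in mutant mice 1, 4, 5 and 6 and at 173, 72.4, 163, 180 and 257 CPM in control mice 1 to 5, with the highest value in a mutant and the lowest in a control. *Myorg* and *Jam2*, also linked to familial brain calcification, had 9 and 17 UMIs. Of 22 genes of phosphate, pyrophosphate and mineralization 7 had no UMI, among them *Fgf23* and *Abcc6*.

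Members differed strongly among themselves in *Ttr*, a gene of the rule whose spread is given as a description. It took between 0.110% and 40.2% of a nucleus's UMIs, with a median of 2.61%. Nuclei with more mitochondrial UMIs mostly had more *Ttr*. In 29 nuclei with at least 1% mitochondrial UMIs (8 mutant, 21 control) the median *Ttr* share was 11.1% (quartiles 6.40% and 16.1%), and in the 100 nuclei below 1% it was 2.13% (1.33% and 3.44%). Single nuclei departed from this, 1 with 6.50% mitochondrial UMIs having 1.07% *Ttr* and 1 with 0.979% having 13.6%. Median depth was 6388 and 5410 UMIs.

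**Figure D3:**
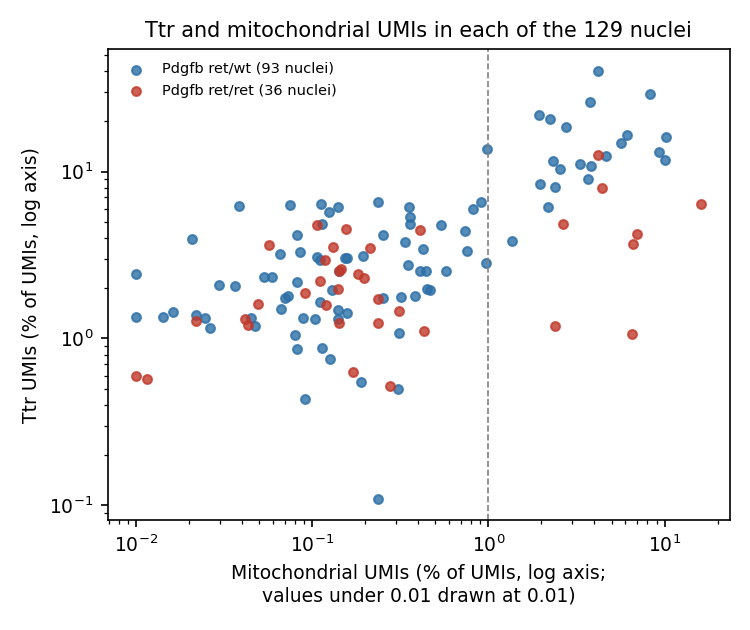
*Ttr* UMIs (vertical log axis) against mitochondrial UMIs (horizontal log axis), both in percent of a nucleus's UMIs, for the 93 control (blue) and 36 mutant (red) members, with the dashed line at 1% mitochondrial UMIs. Nuclei right of the line had a median *Ttr* share of 11.1% and those left of it 2.13%.

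Of the 24 genes for secreted and carrier proteins, 14 (58.3%) were higher and 10 lower in the nuclei with at least 1% mitochondrial UMIs, where 32.6% of all 12564 genes with more than 3 UMIs were higher. Among genes with more than 3 UMIs, MHC class I had 7 of 7 higher, the epithelial list, which includes genes of the rule, 12 of 16, and junction genes 15 of 21, against 2 of 18 multicilia genes and 1 of 13 roof plate factors. *Igf2* was at 679 CPM there against 109 in the others, *Igfbp2*, which binds such growth factors, at 1128 against 252, and *Clu* at 1517 against 448. *Apoe* was at 2321 against 697 CPM, *Enpp2* at 27571 against 12909 and *Ecrg4*, a secreted peptide precursor, at 1378 against 239. *Col9a3* was at 1063 against 1507 CPM, *Col8a1* at 1198 against 1352, *Bmp6*, a growth factor, at 334 against 402 and *Vegfa*, the vascular growth factor, at 74.9 against 167. Transcripts of the long genes *Htr2c* and *Trpm3* were lower there as well, the first at 7836 against 11876 CPM and the second at 18378 against 28468. Only 2 libraries had at least 2 nuclei of both kinds. In both of them *Igf2*, *Ecrg4*, *Enpp2*, *Apoe* and *Clu* were higher in the nuclei with more mitochondrial UMIs, and *Htr2c*, *Trpm3* and *Slc4a10* were lower. RNA outside the nucleus was not measured, and its part in this split was not tested.

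The share of such nuclei varied by mouse. It was 7.69%, 80.0%, 16.7% and 11.1% in mutant mice 1, 4, 5 and 6, and 26.5%, 16.7%, 9.09%, 5.26% and 39.1% in control mice 1 to 5. Mutant mouse 4 was the highest with 4 of 5 nuclei, 3 of its 5 being called doublets, and mutant mouse 1 and control mouse 4 were the lowest. For the list of secreted genes and for *Clu*, values in nuclei below 1% are given beside the others.

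The difference between genotypes in depth per member lay within the spread between mice. The median UMI count was 6100, 8703, 4752 and 5711 in mutant mice 1, 4, 5 and 6. In control mice 1 to 5 it was 4696, 7320, 4782, 5507 and 4482. Over these libraries of at least 5 nuclei the means were 6316 ± 1689 (SD, n = 4) and 5357 ± 1163 (SD, n = 5), with an exact permutation p of 0.349 (smallest possible 0.0159). Only mutant mouse 1 and control mice 1, 3, 4 and 5 had at least 10 nuclei, and there the exact permutation p of 0.400 is the smallest that 1 against 4 allows.

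Genes were compared between genotypes on UMIs summed per library with edgeR's quasi-likelihood test, p values being adjusted by the Benjamini-Hochberg method over all genes tested with a threshold of 0.05. The main fit took libraries with at least 10 nuclei, which left 1 mutant library against 4 controls, so the lone mutant is assumed to vary as the controls do. Libraries with at least 5 nuclei gave 4 mutants against 5 controls, and values of this fit are set beside it where a gene could be tested in both. Log2 differences are mutant minus control.

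No gene passed in the main fit, 0 of 4558 (0%), the lowest adjusted p of edgeR being 0.644. At an unadjusted p below 0.05 there were 220 genes (4.83%), 78 higher (1.71%) and 142 lower (3.12%) in the mutant, and DESeq2 called 0 genes with 65 at an unadjusted p below 0.05. With libraries of at least 5 nuclei 0 of 1053 genes (0%) passed in edgeR, with 34 at an unadjusted p below 0.05 (3.23%; 15 or 1.42% higher and 19 or 1.80% lower), and 0 in DESeq2 with 29. The count rested on 1 control: without control mouse 4, the library with the 2 nuclei rich in astrocyte UMIs, the main fit called 64 of 3687 genes (1.74%), 26 higher (0.705%) and 38 lower (1.03%) in mutant mouse 1. Of the lower ones 11 were mitochondrial transcripts and 4 were on the secreted list (*Clu*, *Igf2*, *Igfbp2* and *Spint2*), *Ttr* was among them, and the higher ones included the astrocyte markers *Slc1a2* and *Slc4a4* and the glial genes *Gpc5* and *Ptprz1*. Mutant mouse 1 had 1404 CPM of astrocyte markers, against 386 to 705 in control mice 1, 3 and 5. In mutant mouse 1 too, 2 of its 13 nuclei held 55 and 41 of the 131 astrocyte UMIs, and the median nucleus held 0. In control mice 1, 3 and 5 the highest nucleus held 52 of 78, 35 of 39 and 29 of 58. The part of astrocyte RNA in these calls was not tested. Control mouse 4 also had the lowest share of nuclei with at least 1% mitochondrial UMIs, 5.26% against 26.5%, 9.09% and 39.1% in control mice 1, 3 and 5 and 7.69% in mutant mouse 1, and its part was not tested. In nuclei below 1% mitochondrial UMIs 0 of 3131 genes passed, 119 having an unadjusted p below 0.05 (3.80%; 48 or 1.53% higher and 71 or 2.27% lower).

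None of the genes named next passed the test in the main fit, or over 9 libraries where they could be tested, and they are given as values. The filter on low counts removed *Epb41l4a*, *Rps6ka5*, *Prkd1*, *Gucd1* and *Tenm2* from the fit over 9 libraries. Without control mouse 4, *Epb41l4a*, A830018L16Rik, *Rps6ka5*, *Clu*, *Hspa5*, *Tmed10* and *Tenm2* were among the 64 genes called (adjusted p from 4.79e-05 to 0.0170 in edgeR), still with mutant mouse 1 as the only mutant. In the main fit the 5 genes with the lowest p among those with a positive difference were *Epb41l4a* (log2 difference 2.19), A830018L16Rik (1.66), *Rps6ka5* (2.29), *Prkd1* (1.99) and *Gucd1* (1.55). A830018L16Rik was at 761 CPM in mutant mouse 1 but at 22.0, 353 and 164 in mutant mice 4, 5 and 6, against 96.6 to 313 in controls, so its value came from 1 mouse. On the lower side *Clu* had a log2 difference of -2.11 (SE 0.47, adjusted p = 0.644 in edgeR) and *Hspa5*, the chaperone of the endoplasmic reticulum, -2.61. Over 9 libraries the log2 difference of *Hspa5* was -0.75, and -0.37 without mutant mouse 1. *Tmed10*, a cargo receptor of the secretory pathway, had 10.7 CPM in mutant mouse 1 and 90.3 to 198 in the controls, and its log2 difference over 9 libraries was -0.66, or -0.04 without mutant mouse 1. *Tenm2* had no UMI in mutant mouse 1 and 18.1 to 139 CPM in the controls.

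*Clu* (chromosome 14, 65968483 to 65981547, plus strand) was at 193 CPM in mutant mouse 1 and at 1120, 385 and 432 CPM in mutant mice 4, 5 and 6. Control mice 1 to 5 had 986, 676, 723, 735 and 729 CPM. Mutant mouse 4, where 4 of 5 nuclei had at least 1% mitochondrial UMIs, was the only mutant within or above the controls. With 4 mutants against 5 controls the log2 difference was -0.51 (SE 0.44, adjusted p = 0.998 in edgeR), and it was -1.32 without mutant mouse 4. Without doublet calls it was -1.33, but mutant mouse 4 then fell below 5 nuclei, so the same 3 mutants were left. In nuclei below 1% mitochondrial UMIs the log2 difference was -1.50 in the main fit. With libraries of at least 5 such nuclei it was -0.86, again with 3 mutants and without mutant mouse 4. *Clu* passed the test in none of these.

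*Igf2* (chromosome 7, 142650766 to 142666816, minus strand) was at 75.0, 220, 64.2 and 185 CPM in mutant mice 1, 4, 5 and 6. In control mice 1 to 5 it was at 515, 241, 126, 109 and 281 CPM. The highest values were in controls and the lowest in mutants, with overlap. Its log2 difference was -1.95 (SE 0.82) in the main fit and -1.05 (SE 0.56, adjusted p = 0.998 in edgeR) over 9 libraries. In nuclei below 1% mitochondrial UMIs it was -0.63 (SE 0.61) in the main fit. Control mice 1 and 5 and mutant mouse 4 were also the libraries with the largest shares of nuclei above that limit, 26.5%, 39.1% and 80.0%. Fibroblast markers summed to 163, 96.6, 0, 31.3 and 160 CPM in control mice 1 to 5 and to 42.9, 43.9, 0 and 41.1 CPM in mutant mice 1, 4, 5 and 6, and their part in the values of *Igf2* was not tested.

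Over the 9 libraries the lowest p values belonged to other genes. *Nav3*, a microtubule-binding protein, was at 332, 242, 225 and 164 CPM in mutant mice 1, 4, 5 and 6 and at 342, 628, 524, 641 and 665 in control mice 1 to 5. All mutants lay below all controls, though mutant mouse 1 and control mouse 1 lay close to each other, and the log2 difference was -1.16 (SE 0.28, adjusted p = 0.998 in edgeR). *Rai14*, an actin-binding protein, was at 96.4, 154, 96.2 and 103 CPM in the mutants and at 188, 217, 235, 195 and 200 in the controls, also without overlap (log2 difference -0.88, SE 0.28). *Snap91*, an adaptor of clathrin-mediated endocytosis, was at 514, 264, 449 and 452 against 689, 676, 596, 657 and 625 CPM (-0.63, SE 0.21). *Gpc6* (-0.91) and *Celf2* (-0.82) completed the 5 on the lower side and overlapped.

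On the higher side *Plcb4*, a phospholipase activated by Gq-coupled receptors, was at 525, 351, 385 and 473 CPM in mutants and 233, 217, 361, 289 and 184 in controls (log2 difference 0.78, SE 0.23, adjusted p = 0.998 in edgeR). Its groups overlapped, since control mouse 3 lay above mutant mouse 4. *Zfyve16*, an endosomal protein, was at 214, 220, 192 and 226 against 94.1, 145, 90.3, 141 and 152 CPM, with no overlap. *Dnah6* (0.79), *Sh3rf1* (0.65) and D5Ertd579e (0.65) were the others. In all 4 of 1053 genes (0.380%) had every mutant library above every control library and 5 (0.475%) had every mutant below. The former were *Zfyve16*, D5Ertd579e, *Cdk17* and *Nhsl2* and the latter *Nav3*, *Rai14*, *Snap91*, *Lrrk2* and *Nt5c2*. These libraries can be split in only 126 ways, so chance alone gives some of so many genes such an order in each direction.

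*Htr2c* was at 10404, 7071, 8823 and 14162 CPM in mutant mice 1, 4, 5 and 6 and at 9255, 12243, 12251, 13305 and 10173 in control mice 1 to 5. Both the lowest and the highest of the 9 values were mutants (log2 difference -0.18, SE 0.20). *Enpp2* (chromosome 15, 54838901 to 54952892, minus strand) was at 11840, 19084, 13892 and 12908 against 22166, 15648, 15503, 12664 and 17708 CPM (-0.19, SE 0.24). *Otx2* was at 311, 395, 770 and 349 against 406, 459, 578, 469 and 393 CPM (-0.06, SE 0.27). *Folr1* was at 182, 593, 417 and 226 against 490, 604, 325, 391 and 321 CPM (-0.28, SE 0.37), and in the main fit, which rests on the 182 of mutant mouse 1, its log2 difference was -1.16 (SE 0.46, unadjusted p = 0.0230 in edgeR). All 4 overlapped between genotypes.

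Lists of genes are described by the count of members with a positive log2 difference and by the median of these differences, beside the medians of all genes tested, -0.06 in the main fit and 0.03 over 9 libraries. Of all genes tested 53.5% were lower in the main fit, 46.5% over 9 libraries and 53.7% in nuclei below 1% mitochondrial UMIs. Of the secreted list 18 genes could be tested in the main fit, which sets mutant mouse 1 alone against 4 controls. None passed. The difference was positive for 3 of them, its median was -0.85, and 7 had an unadjusted p below 0.05 (4.83% of all genes tested did), all with a negative difference (*Apoe*, *Clu*, *Igf2*, *Igfbp2*, *Spint2*, *Tgfb2* and *Trf*). Over 9 libraries 1 of 15 was positive, the median was -0.34 and 1 gene, *Tgfb2*, had an unadjusted p below 0.05. In nuclei below 1% mitochondrial UMIs 3 of 17 were positive in the main comparison and the median was -0.30. With libraries of at least 5 such nuclei, 3 mutants stood against 5 controls. There *Apoe*, *Clu*, *Igfbp2*, *Spint2*, *Tgfb2* and *Trf* had log2 differences of -0.69, -0.86, -0.01, -0.11, -0.62 and -0.40. *Cst3*, *Gas6* and *Bmp6* of the same list were positive there (0.19, 0.26 and 0.05), and *Igf2* could not be tested. Of markers of other cell types, in the main fit, oligodendrocytes had 0 of 3 positive (-0.77), neurons 1 of 4 (-0.73) and astrocytes 2 of 5 (-0.16), and the 1 ependymal marker that could be tested stood at 0.58. The 1 fibroblast marker, *Col1a2*, had no UMI in mutant mouse 1 and 0 to 94.1 CPM in the controls (unadjusted p = 0.0497 in edgeR). Over 9 libraries the oligodendrocyte markers had 0 of 2 positive (-0.53).

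**Figure D4:**
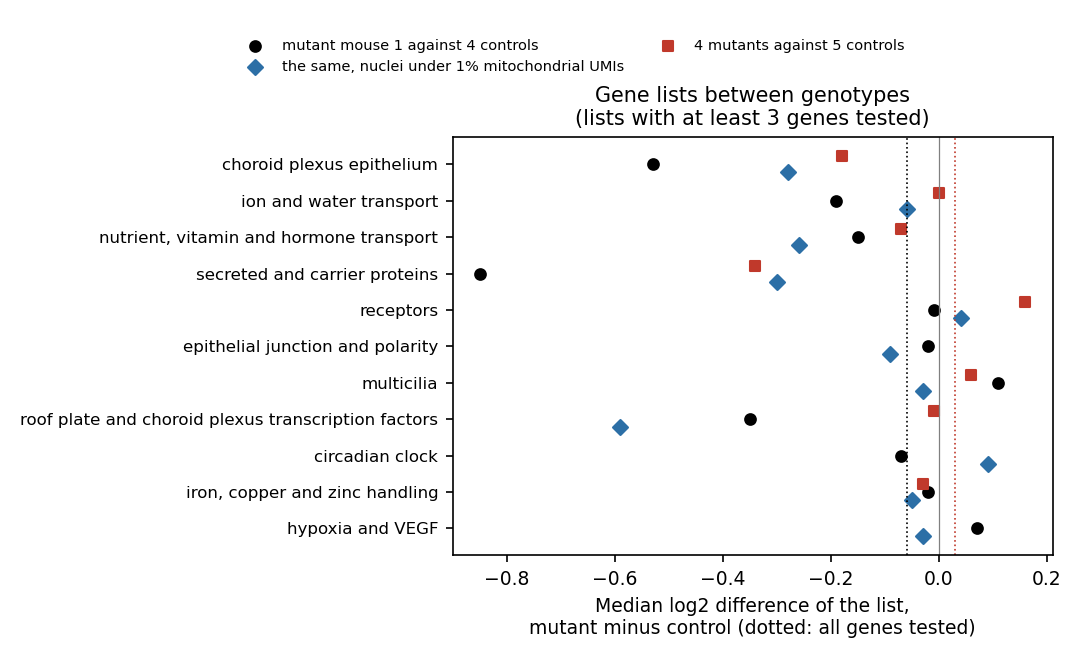
Median log2 difference, mutant minus control (horizontal axis), of 11 gene lists in the comparison of mutant mouse 1 with 4 controls (black), the same in nuclei below 1% mitochondrial UMIs (blue diamonds) and 4 mutants against 5 controls (red), with dotted lines at the medians of all genes tested. The secreted list stood at -0.85, -0.30 and -0.34.

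Ion and water transport had 8 of 21 genes positive (median -0.19, none at an unadjusted p below 0.05), and 8 of 16 over 9 libraries (0.00). Nutrient transport had 9 of 18 (-0.15) and 2 of 6 (-0.07), where *Slc23a2* had a log2 difference of 0.59 (SE 0.25, unadjusted p = 0.0327 in edgeR). Receptors had 7 of 15 (-0.01) and 6 of 8 (0.16), junction genes 5 of 10 (-0.02), multicilia genes 10 of 15 (0.11) and 4 of 7 (0.06), and roof plate factors 2 of 6 (-0.35) and 2 of 4 (-0.01). In nuclei below 1% mitochondrial UMIs the roof plate factors had 1 of 5 positive (-0.59). The epithelial list, apart from the genes of the rule, had 3 of 11 (-0.53) and 2 of 9 (-0.18).

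Lists tied to the disease model and its surroundings were mostly too low to test. Of phosphate and mineralization genes 3 of 4 were positive (median 0.33), and *Ank*, which takes part in the release of pyrophosphate, was at 182 CPM in mutant mouse 1 and at 132, 128 and 20.6 CPM in mutant mice 4, 5 and 6, against 49.5, 24.1, 54.2, 133 and 24.0 CPM in control mice 1 to 5, with overlap. Its log2 difference of 1.39 (SE 0.62, unadjusted p = 0.0375 in edgeR) is of the main fit and rests on mutant mouse 1 alone. Of clock genes 5 of 12 were positive (-0.07), with 1.07 (SE 0.44) for *Per3* in the main fit. *Bhlhe40*, a repressor of the clock, had no UMI in mutant mice 1, 4 and 6, 64.2 CPM in mutant mouse 5 and 24.1 to 89.2 CPM in control mice 1 to 5 (unadjusted p = 0.0175 in edgeR's main fit). Over 9 libraries 1 clock gene (-0.23), 1 PDGF gene (-0.36), 1 phosphate gene (0.29) and 3 iron, copper and zinc genes (-0.03) could be tested. Hypoxia and VEGF genes had 4 of 7 (0.07), iron, copper and zinc genes 4 of 9 (-0.02), NF-kB genes 3 of 4 (0.07) and PDGF ligands 2 of 3 (0.26). *Vcam1*, an adhesion molecule on the NF-kB list, was at 161 CPM in the members against 3.51 in ependymal and 6.87 in the other nuclei. MHC class I and immediate early genes had none that could be tested, and the interferon list had 1.

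The interferon list stood out in 1 nucleus. Its 28 genes summed to 268, 461, 1700 and 637 CPM in mutant mice 1, 4, 5 and 6 and to 372, 290, 253, 414 and 505 CPM in control mice 1 to 5. In mutant mouse 5 a single nucleus held 48 of the 53 UMIs, and without it the library was at 189 CPM. No other member in these 9 libraries held more than 14.

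UMIs of *Ttr* were also found in nuclei of other cell types, and their source was not tested. In oligodendrocyte nuclei, which do not make transthyretin, *Ttr* was at 57.6, 18.8, 2.11, 121, 30.6 and 56.1 CPM in mutant mice 1 to 6. In control mice 1 to 6 it was at 203, 71.7, 50.5, 107, 192 and 5.31 CPM. It was lowest in mutant mouse 3 and control mouse 6, the deep brain libraries with no member. Without the rule's limit on *Ttr*, 2 nuclei of mutant mouse 3 and 8 of control mouse 6 would have been members. These were 0.0205% and 0.0704% of kept nuclei, so the lack of members is not independent of *Ttr*.

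Over the 12 deep brain libraries the level of *Ttr* in oligodendrocyte nuclei had a Pearson's r of 0.83 and a Spearman's rho of 0.79 with the share of choroid plexus nuclei. Since *Ttr* was a gene of the rule and so helped to set this share, these values are a description. Without control mice 1 and 4, the farthest from the median share, r was 0.77, and it was 0.96 among mice 1 to 3 and 0.69 among mice 4 to 6 of both genotypes (n = 6 each). In neurons r was 0.79. With the share counted by the same rule without its limit on *Ttr*, an alternative chosen after seeing the data, r was 0.80 (permutation p = 0.00237, adjusted 0.00925 over the 8 tests of 4 relations computed) and rho 0.73 (permutation p = 0.0101, adjusted 0.0201). Without control mice 1 and 4 this r was 0.68, and it was 0.96 and 0.65 within the first and the last 3 mice of both genotypes. The genotypes overlapped in this level, 47.7 ± 41.9 CPM in mutants against 105 ± 78.9 in controls (SD, n = 6 each, exact permutation p = 0.160). Between the share of ependymal nuclei and that of choroid plexus nuclei r was 0.25 (permutation p = 0.443) and rho 0.07 (permutation p = 0.831), adjusted 0.710 and 0.851. It was -0.22 without control mice 1 and 4, and 0.33 and 0.04 within the first and the last 3 mice.

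**Figure D5:**
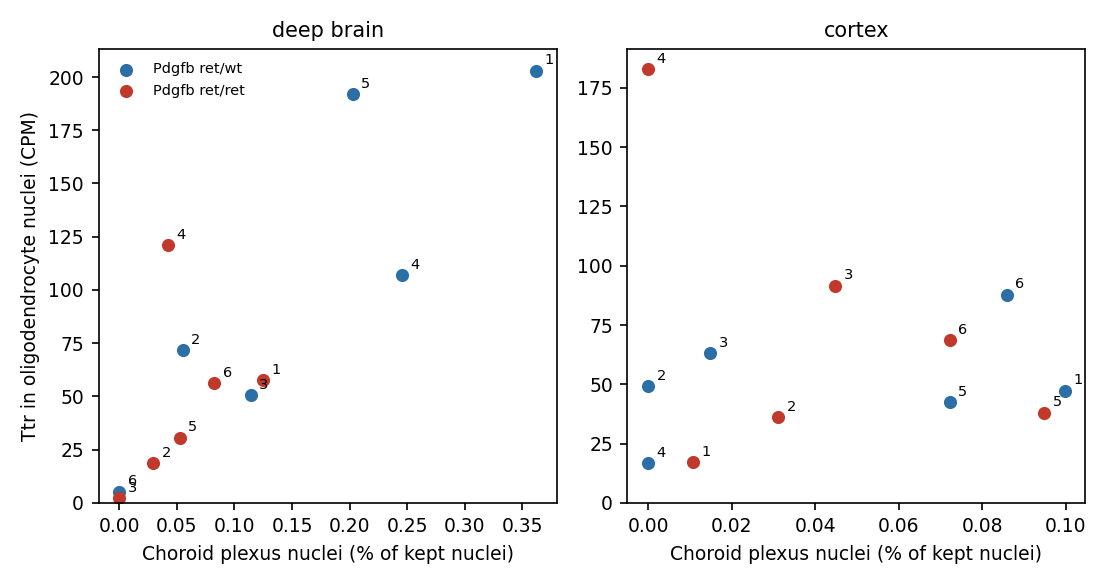
*Ttr* in oligodendrocyte nuclei in CPM (vertical axis) against the share of choroid plexus nuclei in percent of kept nuclei (horizontal axis), each point 1 library with its mouse number, in the deep brain (left, r = 0.83) and the cortex (right, r = -0.12). Mutant mouse 3 and control mouse 6 lie at 2.11 and 5.31 CPM in the deep brain and at 91.6 and 87.8 in the cortex. The median UMIs per kept nucleus ran from 804 to 8054 over the cortical libraries.

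In the 12 cortical libraries, examined after seeing the deep brain, r was -0.12 and rho 0.06. Without control mouse 1 and mutant mouse 5 r was 0.01, and within the first and the last 3 mice it was 0.19 and -0.35. Depth differed between these libraries. A kept cortical nucleus had a median of 804 to 1160 UMIs in mutant mice 1 to 4 and control mice 1, 3 and 4. This median was 4597 to 8054 in the other cortical libraries and 3547 to 7314 in the deep brain. The part of depth in the cortical shares was not tested. In the cortex the same rule found 34 nuclei, at 0 to 0.0997% of kept nuclei, and *Ttr* in oligodendrocyte nuclei ranged from 16.7 to 183 CPM. The highest value was in mutant mouse 4, whose cortical library had no nucleus of the rule. Mutant mouse 3 and control mouse 6, without members in the deep brain, had 2 such nuclei each in the cortex and 91.6 and 87.8 CPM of *Ttr* in cortical oligodendrocytes.

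The 34 cortical nuclei held 289684 UMIs, with *Htr2c* at 11471 CPM and *Enpp2* at 17737 (10848 and 16642 in the members). None of them had a *Hox* UMI either. They were lower in the rule's *Gmnc*, at 625 CPM (537 to 723) against 1065 (994 to 1139), and higher in *Trf*, transferrin, at 507 CPM (429 to 596) against 267 (232 to 305). *Six3*, a forebrain transcription factor, was at 51.8 CPM (29.0 to 85.4) against 11.4 (5.23 to 21.7), its 15 cortical UMIs coming from 8 libraries and its 9 deep brain UMIs from 4. The pools differ in their mice, since 20 of the 34 cortical nuclei came from mutants, against 36 of the 129 members. By genotype *Gmnc* was at 622 CPM in cortical and 1005 in deep brain nuclei of mutants, and at 630 and 1090 CPM in those of controls. In the deep brain of mutant mice 5 and 6 and control mouse 5, which gave 23 of the cortical nuclei, it was at 577, 534 and 746 CPM, so the regions and the mice cannot be told apart for this gene. *Trf* was at 416 and 208 CPM in mutants and at 657 and 292 in controls. For *Trf* and *Six3* too most cortical nuclei came from those mice, and region and mouse were not separated. These intervals cover counting error and not the spread between mice, and with so few nuclei per cortical library no test over mice was made.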

How the data were processed

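Single nuclei of 24 libraries (6 mutant and 6 control mice, deep brain and cortex) were analysed, each mouse being 1 replicate. The authors aligned reads with Cell Ranger 5.0.1, introns included, to mm10, and the UMI counts they deposited are unnormalized, 1 table per library; bcl2fastq 2.20.0.422 is named in the submitters' processing notes. Intron reads favour long genes. Nuclei with more than 500 and fewer than 7000 genes and below 20% mitochondrial UMIs were kept, and the rule given above was applied. The members and gene lists were chosen with earlier results of these data known. Gene positions came from GENCODE M21 (GRCm38), in which 32158 of 32288 genes were found by identifier. Oligodendrocyte nuclei had at least 3 UMIs of *Mog*, *Mag* and *Mobp* and none of *Tmem72*, *Kl*, *Kcnj13* or *Prlr*.

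Counts were summed per deep brain library and tested with edgeR 4.0.16 (filterByExpr, TMM, quasi-likelihood) in R 4.3.3, and with DESeq2 1.42.0. Scrublet ran in scanpy 1.11.5 (Python 3.11.15, scipy 1.17.1). Scripts were tested on simulated data. Exact permutation tests over mice were two-sided, correlations used 100000 permutations. Named genes were the 5 with the lowest p in each direction with at least 20 CPM, up to 4 of the highest in each list and the 20 with the largest fold; a few named by this rule are not reported here. Alternatives covered the limits of the rule, mitochondrial share, doublets, normalization, low counts, blocks by replicate number or age, and leaving out each library. Same-numbered mice were not paired.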

Additional observations from a re-analysis of the deposited data

Results flagged for a closer look

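A total of 46 groups of values was checked for a sample far from the others, and chance flags about 1 in 20 such groups. Among the 4 mutant libraries with at least 5 choroid plexus nuclei, mutant mouse 4 stood apart in the median mitochondrial share, at 4.18% of UMIs, against 0.142%, 0.156% and 0.171% in mutant mice 1, 5 and 6. This library had 5 such nuclei, 3 of them called doublets. Among the 5 controls, control mouse 1 stood apart in *Clu*, at 986 CPM against 676 to 735 in the others. In control mouse 1, 9 of 34 nuclei had at least 1% mitochondrial UMIs, and in control mouse 5 9 of 23 had. The part of such nuclei in the *Clu* level of control mouse 1 was not tested. Among mutants *Rai14* stood apart in mutant mouse 4 as well, at 154 CPM against 96.2 to 103.

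Outside the deep brain, 34 nuclei of the cortical libraries met the same rule. They came from 9 of 12 cortical libraries, at up to 10 per library.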

How the results depend on the processing

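The share of choroid plexus nuclei was lower in mutants under every alternative run, with a difference of -0.141 to -0.0684 percentage points when 1 mouse was left out. The exact permutation test passed only without control mouse 6, at -0.141. With the replicate block the difference was -0.108 (exact sign permutation p = 0.0938), and for the 9 libraries with at least 5 nuclei the replicate block left 0 genes called. Same-numbered mice did not deviate together (r = -0.34, -0.09 and -0.02), and the block changed no call.

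The count of genes between genotypes was 0 and rose to 3 with no filter on low counts (*Hspa5*, *Slc7a11* and *mt-Nd5*, all lower) and ranged from 0 to 64 when 1 library was left out, 64 being without control mouse 4. With at least 5 nuclei per library it was 2 with no filter on low counts (*Snhg11* higher, *Slc7a11* lower), 1 without doublet calls and from 0 to 1 with 1 library left out. The 1 gene, without doublet calls and without mutant mouse 4, was *Ttr*, a gene of the rule, lower in mutants (log2 difference -1.27 in both). Mutant mouse 4 was missing from both fits, since it fell below 5 nuclei without doublet calls. Its *Ttr* was at 58481 CPM, against 19115, 20821 and 19404 in mutant mice 1, 5 and 6 and 34178 to 60310 in the controls. The cause was not tested. A830018L16Rik reversed to -0.00150 with mice matched by age as a block and to -0.37 without mutant mouse 1. Between *Ttr* in oligodendrocyte nuclei and the share in the deep brain, r lay between 0.72 and 0.91 when 1 library was left out. In the cortical libraries r was -0.12. The rule's limit on *Ttr* helped to set both shares, so these values are a description.

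Not run for lack of libraries or degrees of freedom were the main fit with a block, without mutant mouse 1 or with at least 20 nuclei per library. The 9 libraries with at least 5 nuclei held 31170 to 201841 UMIs of members, which limits what was callable.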
